A study of Mus musculus with 4 samples.

Results

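Mouse enzymes that build and cap the O-glycans of T cell surface proteins were described by their array signal in sorted CD4 and CD8 T cells. The set holds the branching enzyme gene Gcnt1 and the sialyltransferase genes St3gal1, St3gal4, St3gal6, St6gal1, St6galnac4 and St8sia6. Members are all probe sets that the platform annotation gives to 1 of these symbols alone, which were 9 of the 20380 probe sets with a single symbol. They cover 6 of the 7 genes. No probe set carried the name St8sia6, and this gene was not analysed here.

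Spleen T cells of C57BL/6 mice, untreated, had been stained for CD44, CD4 and CD8 and sorted by flow cytometry. There were 4 groups, CD4 and CD8 cells of mice labelled as Gfi1 knockout and CD4 and CD8 cells of mice labelled as wildtype, and every group is described as low in CD44, the mark of naive cells. Each group has 1 array, an Affymetrix MOE430A_2.0 chip on which the pooled RNA of 2 mice was read, so no spread between animals was measured and the number of arrays limits every value. The sample titles end in N for the knockout label and in M for the wildtype label, letters that the labels do not explain, and the labels give no age, sex or design of the knockout allele.

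Mucin-type O-glycans start with a single sugar, N-acetylgalactosamine, on serine or threonine, and a galactose is added next. At that simple core the pathway divides. ST3GAL1 caps the galactose with sialic acid, which ends the chain, and ST6GALNAC4 can then add a further sialic acid. GCNT1 instead starts a side branch, on which lactosamine chains grow, and ST3GAL4 and ST3GAL6 cap such chains with sialic acid on the way to sialyl Lewis x, the sugar that selectins bind. ST6GAL1 works mainly on N-glycans and makes the sialic acid linkage that the lectin CD22 recognises. In mice, naive CD8 T cells are known for O-glycans of the short sialylated kind, and activated cells for branched ones.

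The arrays separated the subsets as labelled but went against the CD44 label. Cd4 read 5470 and 5901 on the CD4 arrays and lay below 93.9 on both CD8 arrays, and Cd8a did the reverse. The value 93.9, the 40th percentile of all non-control signals, served as a floor below which signals have no order. Cd44 read 8136 and 5740 on the wildtype-labelled CD4 and CD8 arrays, against 196 and 252 on the knockout-labelled ones. Gfi1 was not lower under the knockout label, at 2891 against 2272 in CD4 and 2447 against 1158 in CD8 cells, and the sources used here do not say where its probe set lies relative to the deletion. Genotype is therefore written as labelled, and each direction below also goes along with the Cd44 difference. Markers of memory and effector T cells moved the same way, with 8 of 8 at least 2-fold lower under the knockout label in each subset and summed signals of 1860 against 47272 in CD4 and 12142 against 66022 in CD8 cells. Of 3 measured naive T cell markers, 2 were at least 2-fold higher under the knockout label in CD4 and 0 in CD8 cells. All 4 markers of dividing cells were also at least 2-fold lower in each subset, with sums of 879 against 14730 and 2149 against 6501. Median signals of the arrays were between 189.2 and 235.2. The part of these differences in the results below was not tested. In sorted populations read in bulk, fewer cells that express a gene and less RNA per cell cannot be told apart.

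Among the 5 members above the floor on every array, St3gal6 differed most, lower under the knockout label and higher in CD8 than in CD4 cells. Its product, ST3GAL6, is a sialyltransferase that caps lactosamine chains and takes part in making selectin ligands. The first St3gal6 probe set, 1449078_at, read 324 on the knockout-labelled CD4 array and 1091 on the wildtype-labelled one. In CD8 cells it read 906 under the knockout label and 2988 under the wildtype label. Both wildtype-labelled arrays were thus above both knockout-labelled arrays, with the CD8 array highest within each label. The folds were 3.37 (CD4) and 3.30 (CD8), with log2 values of -1.75 and -1.72 that differed by 0.03 and have no replicate check.

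The other St3gal6 probe set, 1449079_s_at, read 379 and 884 in knockout- and wildtype-labelled CD4 cells, and 891 and 3025 in knockout- and wildtype-labelled CD8 cells. Here the knockout-labelled CD8 array lay just above the wildtype-labelled CD4 array, so the labelled genotypes overlapped. Its folds were 2.33 (CD4) and 3.40 (CD8), again lower under the knockout label. Both probe sets read the same RNA and are no replicates of each other.

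With the subset as a covariate, St3gal6 fell under the knockout label in the limma fit over 8629 genes (log2 -1.74 ± 0.20 SE, adjusted p = 0.0237, lower in 2 of 2 subsets). That fit has 1 residual degree of freedom, takes its error from the gap between the label differences in CD4 and CD8 cells, moderated mostly by a prior from other genes, and called 0.649% of all genes in either direction, 0.545% as lower. On simulated data its false calls exceeded the nominal share in most runs, so this adjusted p may be too small. The call was lost in 5 of 10 alternative settings, with adjusted p between 0.0597 and 0.111 there, and the cause was not tested. Of the scalings, quantile normalization gave 0.0874 and median centring 0.065, where the fitted log2 values were -1.68 and -1.47. With probe sets fitted as separate features, both St3gal6 probe sets were called (limma adjusted p = 0.0159 and 0.0409).

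In the ranking of all 8629 genes by log2 fold, 276 genes were at or below St3gal6 in CD4 and 120 in CD8 cells. As the background, 7.30% of genes were at least 2-fold lower under the knockout label in CD4 cells, 4.02% in CD8 cells and 2.07% in both. With signals floored at 93.9, St3gal6 was the only 1 of the 6 members at least 2-fold lower in either subset. Gcnt1, below that floor on 3 arrays, joined it in CD4 cells with a floor at the 25th percentile and in both subsets with a pseudocount of 16 and no floor. No member was at least 2-fold higher, against 1.95% and 1.14% of genes.

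**Figure D1:**
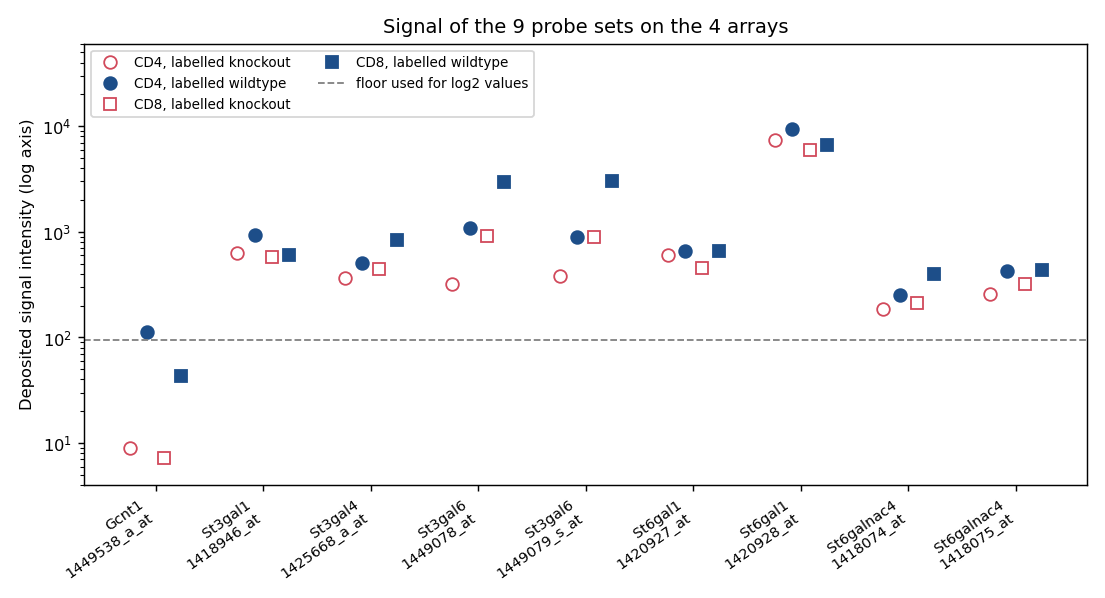
Deposited signal intensity (vertical log axis) of each of the 9 probe sets on the 4 arrays, 1 point per array, with circles for CD4, squares for CD8, open symbols for the knockout label and filled ones for the wildtype label. St3gal6 is spread widest among the probe sets above the floor (dashed line at 93.9), from 324 to 2988 on its first probe set, and Gcnt1 passes the floor on 1 array.

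Between the subsets, St3gal6 was higher in CD8 cells at both labels. The first probe set was 2.74-fold higher in CD8 than in CD4 cells under the wildtype label and 2.80-fold under the knockout label, and the other was 3.42-fold and 2.35-fold higher. Among all genes, 3.13% and 1.94% were at least 2-fold higher in CD8 cells under these labels, and 0.672% under both, while 5.02% and 1.27% were at least 2-fold lower, with no member among them. The subset term of the limma fit gave St3gal6 a log2 value of 1.47 ± 0.20 SE, higher in 2 of 2 pairs of arrays, with an adjusted p = 0.0642 that did not pass the threshold of 0.05. That term called 0.255% of all genes. The subset and genotype comparisons use the same 4 arrays and are not separate evidence.

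Dendritic cell and MHC class II markers stood high on the wildtype-labelled CD8 array, where St3gal6 also had its highest signal. All 8 were at least 2-fold lower on the knockout-labelled CD8 array, with summed signals of 1536 against 48471. In CD4 cells 0 of the 8 were 2-fold lower, with sums of 4342 against 4026. The part of these 8 markers in the St3gal6 difference was not tested in either subset. Of the 3 measured natural killer cell markers, Nkg7, a granule protein gene that cytotoxic T cells also express, read 179 under the knockout and 4486 under the wildtype label in CD4 cells, 25.1-fold lower, and 10407 and 14569 in CD8 cells. Klra8 was above the floor on the wildtype-labelled CD8 array alone (221), and Ncr1 on none. Of 4 macrophage and monocyte markers, 1 was at least 2-fold lower under the knockout label in CD8 cells and 0 in CD4 cells. The part of these in the St3gal6 difference was not tested. The 4 granulocyte markers and the 2 measured red cell markers were below the floor on all arrays.

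The windows upstream of the St3gal6 start sites are shown because St3gal6 is the member on which the comparisons turn, with the window of St3gal4, the other member of its kind, for comparison. They are RefSeq sequences of build GRCm38.p6, 250 bases before each annotated start, written 5′ to 3′ on the gene's strand. Capitals mark matches on either strand to 5 short motifs: GGTGTGA (T-box factors), AAATCA (which holds the core of GFI1 sites), TGTGGT (RUNX), GGAAGT (ETS) and TTCNNNGAA (STAT).
St3gal6, chr16:58524254-58524503, minus strand: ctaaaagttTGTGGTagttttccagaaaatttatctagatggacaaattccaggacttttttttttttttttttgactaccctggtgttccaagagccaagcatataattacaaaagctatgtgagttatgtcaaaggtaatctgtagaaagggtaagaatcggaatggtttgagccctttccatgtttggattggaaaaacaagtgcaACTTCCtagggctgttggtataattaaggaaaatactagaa
St3gal6, chr16:58523427-58523676, minus strand: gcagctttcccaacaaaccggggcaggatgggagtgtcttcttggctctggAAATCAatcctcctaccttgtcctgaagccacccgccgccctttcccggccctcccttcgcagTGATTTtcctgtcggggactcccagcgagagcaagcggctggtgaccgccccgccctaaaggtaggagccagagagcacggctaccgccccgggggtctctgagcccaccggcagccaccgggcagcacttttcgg
St3gal4, chr9:35116865-35117114, minus strand: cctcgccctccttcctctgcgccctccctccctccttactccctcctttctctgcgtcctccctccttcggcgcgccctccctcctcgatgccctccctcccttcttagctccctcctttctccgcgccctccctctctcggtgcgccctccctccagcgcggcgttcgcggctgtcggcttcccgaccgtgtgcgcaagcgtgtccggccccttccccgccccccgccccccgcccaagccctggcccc

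The upstream St3gal6 window, poor in G and C at 34.8%, held 1 RUNX match and 1 ETS match on the other strand. The downstream window, with 64.4% G and C, held 2 matches to AAATCA, 1 on each strand. None of these matches overlapped another. The St3gal4 window, at 72.8% G and C, held no match to any of the 5. Over all 32851 windows of this length, 12.4% held AAATCA, 14.0% TGTGGT, 19.7% GGAAGT, 7.02% TTCNNNGAA and 3.33% GGTGTGA. The table gave 11 windows for 6 of the 7 genes, St8sia6 among them and St3gal1 not. In these 11, AAATCA and TGTGGT were each found in 1, GGAAGT in 4, and the others in 0. A match of these letters is a description and was not tied to any measurement here.

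St3gal4, whose product also caps lactosamine chains, was lower under the knockout label by less than 2-fold. Its only probe set read 365 and 508 in knockout- and wildtype-labelled CD4 cells. In CD8 cells the signals were 440 and 836. Both wildtype-labelled arrays were above both knockout-labelled ones, and the wildtype-labelled CD8 array was highest. The folds were 1.39 (CD4) and 1.90 (CD8), and limma did not call the gene (log2 -0.70 ± 0.29 SE, adjusted p = 0.375). In CD8 against CD4 cells St3gal4 was 1.64-fold higher under the wildtype label and 1.21-fold higher under the knockout label.

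St3gal1, which encodes the enzyme that caps the simple core and so ends the chain before it branches, was lower under the knockout label in CD4 cells and near level in CD8 cells. The CD4 arrays read 626 under the knockout and 941 under the wildtype label. The CD8 arrays read 578 and 604. The wildtype-labelled CD4 array stood above the other 3, and the labelled genotypes overlapped. The fold was 1.5 in CD4 cells, and in CD8 cells the log2 value of -0.06 turned to 0.15 with median centring. Limma did not call St3gal1 (adjusted p = 0.685). Signal was lower in CD8 than in CD4 cells at both labels, 1.56-fold under the wildtype and 1.08-fold under the knockout label.

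Gcnt1, the branching enzyme gene, was near or below the floor on these arrays. Its only probe set read 113 on the wildtype-labelled CD4 array. The wildtype-labelled CD8 array read 43.3, and the knockout-labelled arrays 8.9 in CD4 and 7.2 in CD8 cells, all 3 below the floor. Under the knockout label Gcnt1 was therefore lower by 1.2-fold or more in CD4 cells, no fold can be given for CD8 cells, and limma did not call it (adjusted p = 0.875). It passed the filter on low signals through 1 array, so it had to be highest there. The size depends on the floor, since with a pseudocount of 16 and no floor the log2 values were -2.37 in CD4 and -1.35 in CD8 cells.

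St6gal1, the gene of the enzyme that makes the ligand of CD22, differed little. Its probe set with the higher signal, 1420928_at, read 7376 and 9424 in knockout- and wildtype-labelled CD4 cells and 5998 and 6650 in knockout- and wildtype-labelled CD8 cells. The wildtype-labelled CD4 array was highest, the CD8 arrays were below both CD4 arrays, and the labelled genotypes overlapped. Under the knockout label it was lower by 1.28-fold (CD4) and 1.11-fold (CD8), with an adjusted p = 0.483 by limma. The CD8 log2 value of -0.15 turned to 0.07 with median centring. The other probe set, 1420927_at, read 609 and 657 in CD4 and 457 and 663 in CD8 cells, knockout label first, which put the difference between labels in CD8 cells instead. B cells are known for high ST6GAL1. Of 7 measured B cell markers, 4 were above the floor on at least 1 array, namely Ighm on all, Cd79b and Cd22 on 3 each and Blk on 1. Ighm is given by its probe set of highest mean signal, 1427351_s_at (10871 to 16664). Several of its other probe sets were below the floor on all arrays. Cd79a, Ms4a1 and Pax5 were below the floor on all arrays, and the part of the B cell markers in the St6gal1 signal was not tested.

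St6galnac4, whose enzyme adds a further sialic acid to the sialylated simple core, was lower under the knockout label on both of its probe sets. The representative one, 1418075_at, read 257 and 423 in knockout- and wildtype-labelled CD4 cells and 322 and 437 in knockout- and wildtype-labelled CD8 cells. The other, 1418074_at, read 186 and 254 in CD4 and 210 and 396 in CD8 cells, in the same order of labels. On both, the wildtype-labelled arrays were above both knockout-labelled arrays. Folds were 1.65 and 1.36 in CD4 cells and 1.36 and 1.89 in CD8 cells, so the probe sets disagreed on which subset differed more. Limma did not call the gene (log2 -0.58 ± 0.31 SE, adjusted p = 0.493).

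As deposited, all 8 member probe sets that passed the floor on every array were lower under the knockout label in both subsets, where 30.4% of the 11165 such probe sets were. In 5 of the 8 both knockout-labelled arrays lay below both wildtype-labelled ones, against 21.4% of probe sets. These counts depend on scaling: 7 of 8 were lower in both subsets after quantile normalization, against 25.3% of probe sets, and 5 of 8 with median centring, against 11.1%. Median centring moved the median log2 difference of all these probe sets to 0.31 in CD4 and 0.21 in CD8 cells, and it was 0.00 in both as deposited. The 8 probe sets belong to 5 genes, 3 of which have 2 probe sets. The members were chosen with earlier results of these data known, so their shared direction is no independent support. The median log2 fold of the 6 member genes was -0.53 (CD4) and -0.29 (CD8), beside a median of 0.00 over all genes in each subset. Gcnt1 enters at its bound in CD4 cells. In CD8 cells, where both its arrays are at the floor and no fold can be given, it enters as 0.00.

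By subset the members did not share a direction. Both CD8 arrays were above both CD4 arrays on 1 of the 8 probe sets, 1449079_s_at of St3gal6, against 17.3% of all such probe sets. They were below both CD4 arrays on 2, those of St3gal1 and 1420928_at of St6gal1, against 17.4%. The other 5 overlapped between the subsets. Of the 5 genes above the floor on every array, St3gal6 alone was at least 2-fold apart between subsets, at either label.

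**Figure D2:**
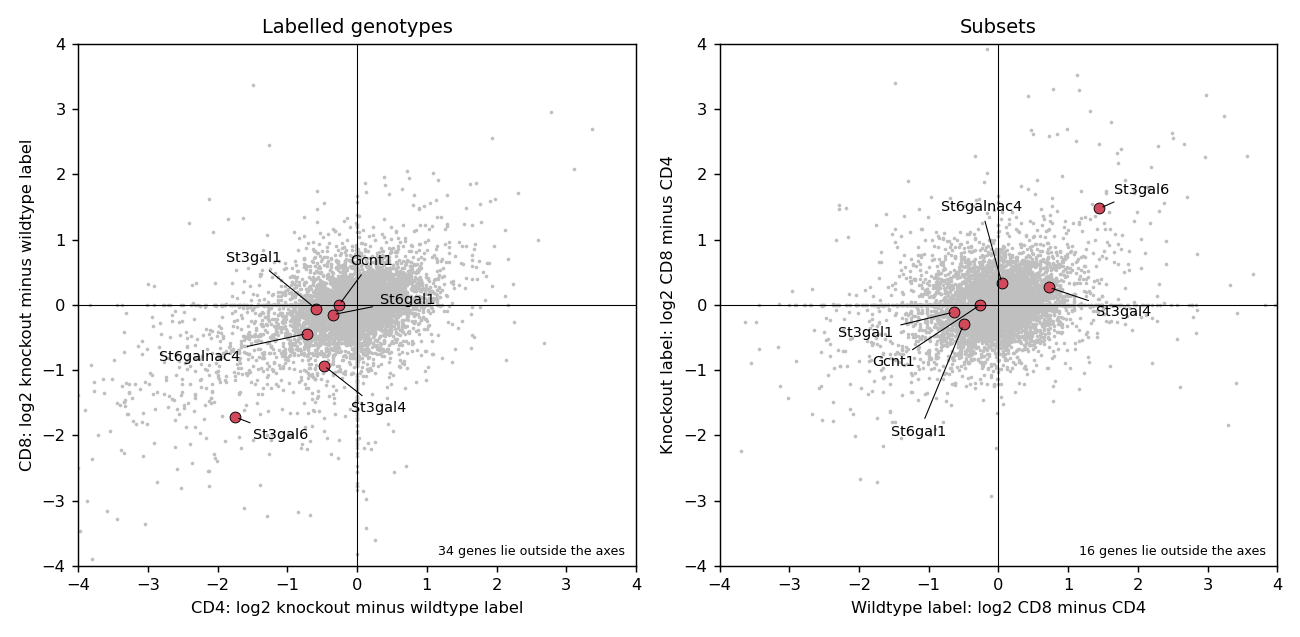
Log2 folds of 8629 genes (grey) with the 6 members in red, 1 point per gene. The left panel sets the knockout minus wildtype label difference in CD8 (vertical) against that in CD4 cells (horizontal), and the right panel the CD8 minus CD4 difference under the knockout (vertical) and the wildtype label (horizontal). St3gal6 lies at -1.75 and -1.72 on the left and at 1.45 and 1.48 on the right, away from the other members; 34 and 16 genes lie outside the axes.

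Genes with the most similar pattern were found by the Euclidean distance of log2 signals over the 4 arrays after subtracting each gene's mean. Closest to St3gal6 were Rhoq, which encodes a small GTPase (distance 0.32), the decarboxylase gene Ddc (0.56) and Baiap3 (0.64), and no gene lay within 0.25. Rhoq read 121 and 340 in knockout- and wildtype-labelled CD4 cells and 258 and 1084 in CD8 cells. Closest to St3gal4 were Pctp (0.05), Gnptab (0.15) and Angptl4 (0.16), with 17 genes within 0.25. For the others such likeness was common, since 106 genes lay within 0.25 of St6galnac4, 311 of St3gal1, 412 of St6gal1 and 1523 of Gcnt1. Their nearest were Rttn, Stard5 and Akap1 for St6galnac4, Slc66a1, Ntrk3 and Atp2a2 for St3gal1, and Mapkbp1, Yipf2 and Serinc3 for St6gal1. Those of Gcnt1 (Ppp1r32, Pcsk1n and Tmem150a) share its floor on 3 arrays. Ddc, Baiap3 and Akap1 were below the floor on the knockout-labelled CD4 array (41.7, 60.9 and 60.2). Ntrk3 was below it on the knockout- and wildtype-labelled CD8 arrays (86.7 and 78.9). The distances of these genes thus depend in part on the floor. With 4 arrays, many genes can look alike.

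The other sialyltransferases did not share one direction. Of 13 named genes 10 were above the floor on at least 1 array, and 4 of them were at least 2-fold lower under the knockout label in CD4 cells, 1 in CD8 cells and 0 higher. Over all genes, 7.30% (CD4) and 4.02% (CD8) were at least 2-fold lower, and 1.95% and 1.14% at least 2-fold higher. The same shares are the background for the counts of the lists below. Limma called 0 of them. St3gal5, the gene of the enzyme that makes the ganglioside GM3, was lower in both subsets, with 100 against 226 in CD4 and 88.9, below the floor, against 218 in CD8 cells, which is 2.25-fold and at least 2.32-fold (adjusted p = 0.113). St6galnac6 and St6galnac3, further members of the family that sialylates N-acetylgalactosamine, were at least 2.42-fold and at least 2.48-fold lower in CD4 cells (adjusted p = 0.434 and 0.499). St6galnac3 passed the floor on the wildtype-labelled CD4 array alone (232), so it had to be highest there. St3gal2 was 2.21-fold lower in CD4 cells, at 301 against 664. St8sia1, which encodes the ganglioside GD3 synthase, went the other way, at 576 against 432 in CD4 and 505 against 258 in CD8 cells (1.33-fold and 1.96-fold higher, adjusted p = 0.424).

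The enzymes that start and extend O-glycans showed few differences of 2-fold, with median log2 folds of -0.07 (CD4) and -0.13 (CD8). Among 13 measured genes, 1 was at least 2-fold lower and 1 at least 2-fold higher in CD4 cells, 0 either way in CD8 cells, and limma called 0. Gcnt2, the I-branching enzyme gene, was lower by 5.09-fold or more in CD4 cells (below the floor, against 478) and level in CD8 cells (148 and 146; adjusted p = 0.437). Galnt10, one of the transferases that attach the first sugar, was 2.42-fold higher in CD4 cells and 1.11-fold in CD8 cells (adjusted p = 0.343). Of the same family, Galnt4 was 1.70-fold and 1.5-fold higher (adjusted p = 0.367) and Galnt1 1.78-fold and 1.34-fold lower (adjusted p = 0.152).

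Of 5 measured genes for fucosylation and sulfation, which finish selectin ligands, 1 was at least 2-fold lower in CD4 cells, and limma called 0. Fut7, the fucosyltransferase gene of sialyl Lewis x in leukocytes, was below the floor on all 4 arrays, from 22.5 to 92.7. Chst2, which encodes a sulfotransferase, read 458 on the wildtype-labelled CD4 array and lay below the floor on the other 3, so it had to be highest there. In CD4 cells it was at least 4.88-fold lower under the knockout label (adjusted p = 0.424 by limma). Fut8, the core fucosyltransferase gene of N-glycans, was 1.71-fold and 1.47-fold lower (adjusted p = 0.216). Slc35c1, the GDP-fucose transporter gene, was 1.48-fold and 1.03-fold higher (adjusted p = 0.683), and Tpst1, of tyrosine sulfation, 1.13-fold and 1.31-fold lower (adjusted p = 0.773).

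N-glycan processing and sialic acid supply showed few differences of 2-fold. None of the 6 measured N-glycan genes reached it, and limma called 0 of them. The branching enzyme gene Mgat4b was lower by 1.74-fold (CD4) and 1.62-fold (CD8; adjusted p = 0.337), and the mannosidase gene Man2a1 by 1.37-fold and 1.28-fold (adjusted p = 0.321). Mgat1 had log2 folds of -0.09 and -0.24 (adjusted p = 0.749), and Mgat2 of -0.34 and 0.05 (adjusted p = 0.777). Of 8 genes for sialic acid supply and removal, 1 was at least 2-fold lower and 1 higher in CD4 cells, 0 in CD8 cells, and limma called 0. Neu3, a sialidase gene, read 125 and 431 in CD4 cells (3.45-fold lower, adjusted p = 0.614) and 152 and 120 in CD8 cells. Cmah, which encodes the hydroxylase that makes N-glycolylneuraminic acid, read 1385 and 666 in CD4 cells (2.08-fold higher, adjusted p = 0.481) and 2137 and 2182 in CD8 cells. The supply genes Cmas and Slc35a1 were within 1.27-fold in both subsets (adjusted p = 0.559 and 0.695).

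Among the proteins that carry these glycans, limma called Cd44 alone for the genotype label. Cd44 fell under the knockout label (41.5-fold for CD4 and 22.7-fold for CD8, adjusted p = 0.00137 by limma). Of 10 measured carriers it alone was 2-fold lower in CD4 and in CD8 cells. Cd8b1, whose O-glycans change as CD8 cells mature, was 3.11-fold higher under the knockout label in CD4 cells and level in CD8 cells (adjusted p = 0.406 by limma). Its signals were 970 against 312 on the CD4 arrays, far below the 25715 and 26222 on the CD8 arrays. The source of the CD4 signal was not tested. Cd5 was 1.62-fold and 1.94-fold lower (adjusted p = 0.0694), and Spn, the sialophorin gene and a main carrier of branched O-glycans, 1.35-fold and 1.11-fold lower (adjusted p = 0.46).

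Of 6 measured glycan-binding proteins, limma called 2 as lower under the knockout label, the galectin gene Lgals3 and Cd22, against 0.545% of all genes. Lgals3 was lower by 14.0-fold (CD4) and 14.8-fold (CD8; adjusted p = 0.00652). Cd22, the lectin that reads the linkage made by ST6GAL1, read 154 and 1124 in knockout- and wildtype-labelled CD4 cells and 76.3, below the floor, and 615 in CD8 cells, which is 7.30-fold and at least 6.55-fold lower (adjusted p = 0.0232). The other Cd22 probe set, 1419769_at, passed the floor on the wildtype-labelled arrays alone. It read 17.0 and 216 in CD4 and 21.1 and 158 in CD8 cells, knockout label first. It was at least 2.3-fold and at least 1.68-fold lower, and limma did not call it with probe sets as features. Without trend limma called 0 genes for the label, so the Lgals3 and Cd22 calls were lost there. Cd22 also marks B cells: of 7 measured B cell markers, 2 in each subset were at least 2-fold lower under the knockout label, Cd22 among them. Their summed signals were 16983 against 15567 in CD4 and 13595 against 12616 in CD8 cells, most of it Ighm, and without Ighm the sums ran the other way, at 319 against 1582 and 929 against 1745. These sums include Cd22 itself, so they are not separate from its result. Besides Cd22, the marker at least 2-fold lower was Cd79b in CD4 cells (57.1, below the floor, against 305). In CD8 cells it was Blk (77.1, below the floor, against 200), and Cd79b was level there (738 and 759). The part of the other B cell markers in the Cd22 result was not tested. Lgals1 and Lgals8 were lower by 1.85-fold and 1.51-fold in CD4 and by 1.28-fold and 1.14-fold in CD8 cells and were not called (adjusted p = 0.246 and 0.438). The list medians were -0.74 in CD4 and -0.27 in CD8 cells.

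**Figure D3:**
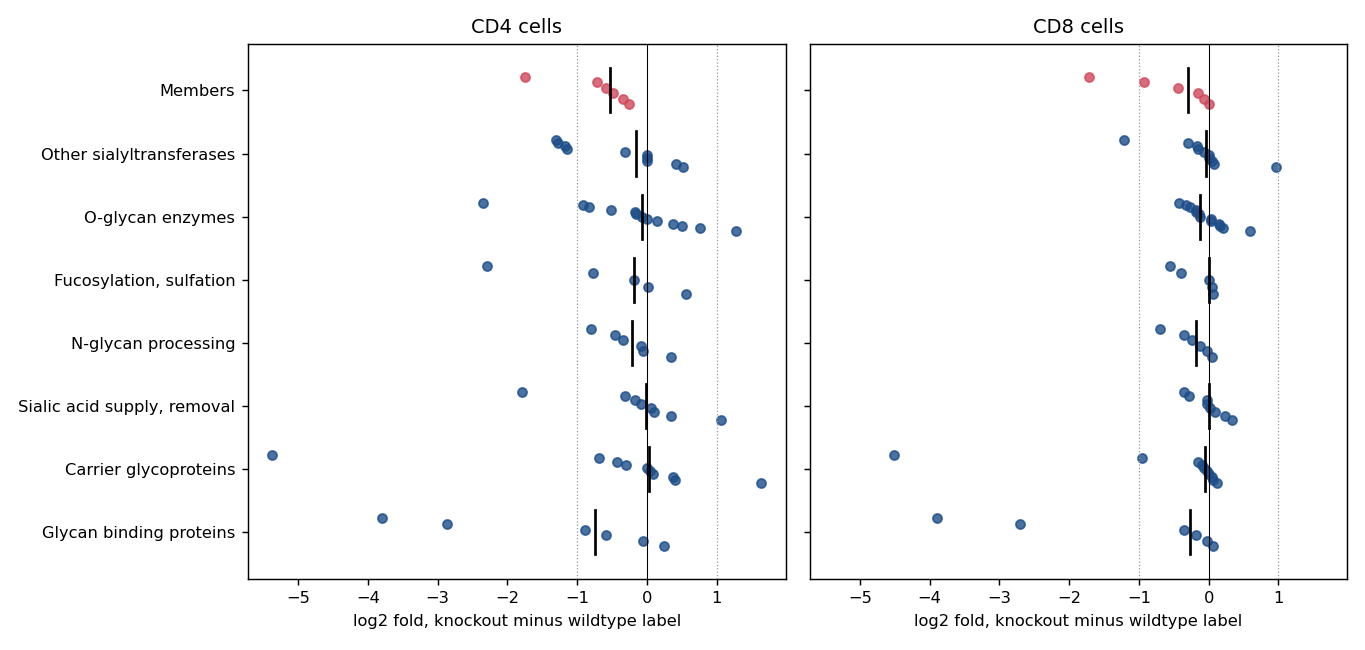
Log2 folds of the knockout minus the wildtype label (horizontal) in CD4 (left) and CD8 cells (right), 1 point per gene above the floor on at least 1 array, by list, with the list's median as a black bar and dotted lines at 2-fold. Genes with 1 of the 2 arrays at the floor stand at their bound, and genes with both at the floor stand at 0.00, where no fold can be given. Members (red) have medians of -0.53 and -0.29, and Cd44, Lgals3 and Cd22 are the points farthest to the left.

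**Figure D4:**
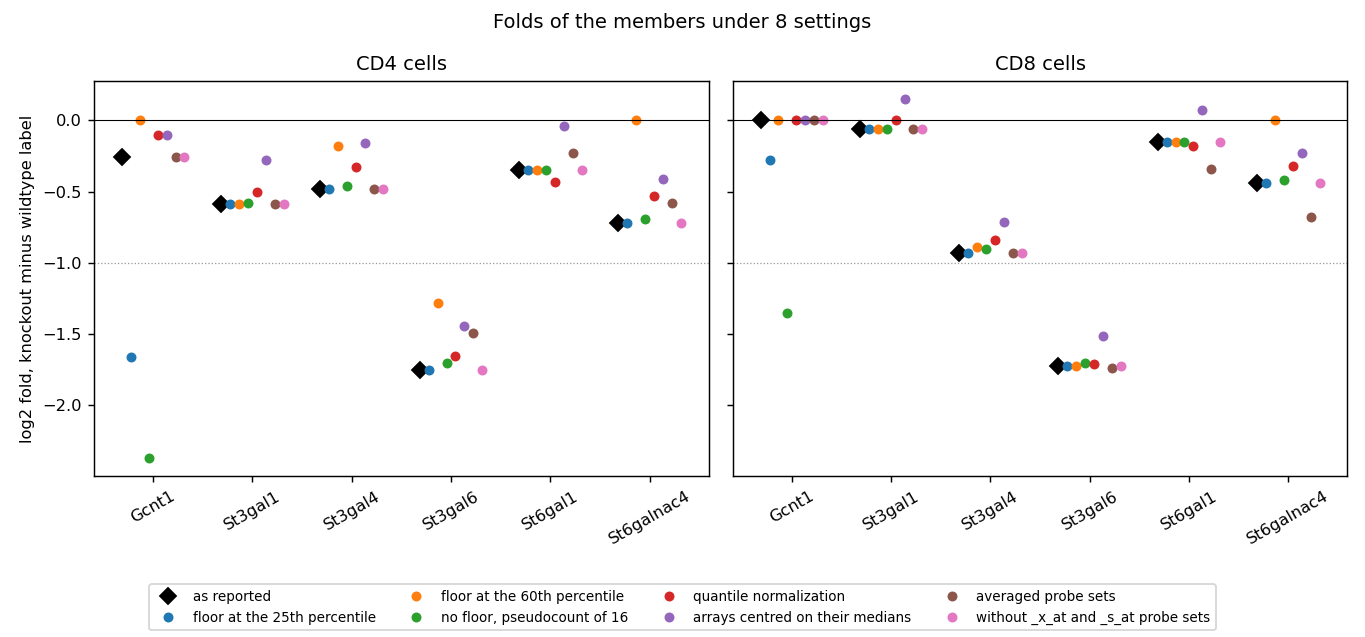
Log2 folds of the knockout minus the wildtype label (vertical) for the 6 members as reported (black diamonds) and under 7 alternatives (coloured points), in CD4 (left) and CD8 cells (right), with a dotted line at 2-fold. St3gal6 stays between -1.75 and -1.28 in CD4 and between -1.74 and -1.51 in CD8 cells, and Gcnt1 and St6galnac4 move with the floor.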

How the data were processed

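Total RNA was isolated with TRIzol and biotinylated, per the labels' protocols. The authors deposited 1 linear signal intensity for each probe set and array, made with GCOS 1.4 and MAS5 per the submitters' processing notes; other steps are not stated in the sources used here. Detection calls were not used. The arrays have like means, which points to a shared scaling step that takes the amount of RNA as alike on each.

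Of 22690 probe sets, 64 controls were left out; 20380 had 1 symbol, 691 several and 1555 others were not listed, and 20351 matched RefSeq by gene ID. Signals below the 40th percentile (93.9) were set to it before log2. A gene was represented by its probe set of highest mean log2 signal (12393 genes, of which 8629 passed the floor on 1 or more arrays and 6882 on all). limma 3.58.1 (R 4.3.3; lmFit, eBayes with trend, prior degrees of freedom 5.39) fitted subset and genotype label, adjusted by Benjamini-Hochberg, threshold 0.05. Its error is mostly a prior from other genes and treats the 4 arrays as independent, and p-values do not measure a spread between animals. When the fit was tested on simulated data, the share of false calls lay above the 0.05 threshold in most runs, and the share accepted was set after earlier forms of that test had failed, so adjusted p-values may be too small. Other steps used pandas 2.3.3, numpy 2.4.6, Python 3.11.15 and matplotlib 3.10.9.

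Members, lists, motifs and alternatives were chosen with earlier results of these data known. Named were all members, label checks, the 3 genes nearest each member in pattern and up to 4 genes of each list with the largest mean fold; Fut7, markers at the floor and genes of the closing section were chosen after their values were seen. Alternatives were other floors, a pseudocount of 16, quantile normalization, median centring and averaged probe sets. Further ones left out probe sets with names ending in _x_at or _s_at, used no trend, kept only genes past the floor on every array, or fitted probe sets as features.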

Additional observations from a re-analysis of the deposited data

Results flagged for a closer look

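Gcnt2 was picked out because its subsets differed in opposite directions at the labels. CD8 minus CD4 had a log2 value of -1.72 under the wildtype label and of 0.66, a lower bound because the knockout-labelled CD4 array is at the floor, under the knockout label. The difference was not tested. It rests on the wildtype-labelled CD4 array, which read 478 against 148 or less on the others. A second Gcnt2 probe set, 1453674_at, passed the floor on that array alone (164). It therefore had to be highest there and adds no support. The remaining Gcnt2 probe sets were below the floor on all arrays.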

How the results depend on the processing

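Among the 168 member folds recomputed under 7 alternatives, none of those at least 2-fold turned its sign, and 162 moved by less than 1.5-fold. Some of these could not move, so the count overstates how stable the folds are. Leaving out _x_at and _s_at probe sets kept every member's representative probe set, and averaging changes nothing for a gene with 1 probe set. Gcnt1 folds between arrays that are both at the floor stay at 0.00. Small CD8 values turned sign 3 times, for St3gal1 after quantile normalization and with median centring, and for St6gal1 with median centring. The number of members at least 2-fold apart was 1 (St3gal6) in each comparison as reported. It became 2, with Gcnt1 added, in CD4 cells between labels and between the subsets under the wildtype label with a floor at the 25th percentile or a pseudocount of 16, and in CD8 cells between labels with that pseudocount. Limma called 1 member for the label as reported and 0 with a floor at the 60th percentile, quantile normalization, median centring, averaged probe sets or no trend. For the subset it called 0 as reported and 1 (St3gal6) with a floor at the 25th percentile, the pseudocount or only genes past the floor on every array. St3gal6 had fitted log2 values by label between -1.74 and -1.47, and adjusted p between 6.44e-07 and 0.111. Over all genes the label calls, 56 as reported, were 578 with the lower floor, 373 with the pseudocount, 201 for genes past the floor on every array, 94 for probe sets, 31 with the higher floor, 17 with median centring, 15 after quantile normalization, 10 with averaged probe sets and 0 without trend, where 996 genes had an unadjusted p under 0.05. The causes were not tested. The fit already compares the labels within each subset. No paired analysis by replicate number was possible because each group has 1 array, and leaving out an array leaves no residual degree of freedom. Signals below or near the floor, as for Gcnt1 on 3 arrays, set the limit. With the floor at the 60th percentile, the St6galnac4 log2 values of -0.72 (CD4) and -0.44 (CD8) both became 0.00.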

Other observations

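Some further genes of the pathway differed more between the subsets than between the labels, and were chosen after their values were seen. St3gal2, a sialyltransferase gene, ran opposite to St3gal6: its representative probe set read 301 and 664 in knockout- and wildtype-labelled CD4 cells against 51.0, below the floor, and 104 in CD8 cells. CD8 was at least 3.2-fold lower under the knockout label and 6.38-fold lower under the wildtype label. Both of its other probe sets were below the floor on the CD8 arrays and above it on the CD4 arrays. Cmah was 3.28-fold higher in CD8 than in CD4 cells under the wildtype label and 1.54-fold under the knockout label, and its other probe set 2.70-fold and 1.39-fold. Limma called none of St3gal2, Cmah or St3gal6 for the subset.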
